A study of Mus musculus with 6 samples.

Results

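The genes of sterol and fatty acid synthesis were followed through 6 RNA sequencing libraries of 4T1, a mouse mammary tumour cell line. The group was a list of 36 genes chosen by name, with earlier results of these data known. It holds 19 enzymes of the mevalonate and sterol pathway and 6 genes that regulate the pathway or carry sterols. The other 11 are enzymes that make, elongate or desaturate fatty acids. All 36 were among the 11452 gene symbols of the deposited table, and all 36 were among the 11269 genes tested. The cells were Myosin 1e wild-type (WT) pools and Myosin 1e knockout (KO) pools, with 3 libraries per genotype, which the series' design text calls biological replicates. The sources used here do not say how the knockout was made, how the pools were derived or how the cells were cultured. The columns of the table are numbered 1, 2 and 4 in each genotype, and libraries are named here by genotype and number, as KO 1 or WT 4. The sample titles number the pools 1, 2 and 3, so the columns numbered 4 match no title by number. The sources used here do not say what the number stands for either.

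Animal cells build cholesterol from acetyl-CoA through mevalonate, isoprenoids, squalene and lanosterol, and build fatty acids from the same acetyl-CoA through malonyl-CoA. Most genes of both routes are targets of the sterol regulatory element binding proteins, SREBPs, transcription factors that begin as membrane proteins of the endoplasmic reticulum. When membrane sterol is low, the escort protein SCAP carries them to the Golgi for cleavage, and when sterol is high the INSIG proteins hold SCAP back. SREBP2 is known mainly for the sterol genes and SREBP1 mainly for the fatty acid genes, and cells from mammary epithelium, which makes milk lipid, use both routes.

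The recovered reads numbered 17772003 to 19988206 per library. Myo1e itself was at 6.87, 6.81 and 6.81 log2 CPM (the log2 of reads scaled to library size, with a small prior added) in KO 1, KO 2 and KO 4, and at 7.09, 7.02 and 6.91 in WT 1, WT 2 and WT 4. Myo1e was lower in KO in 3 of 3 same-numbered pairs, by 0.23, 0.21 and 0.09. The difference of -0.18 (SE 0.09) did not pass the threshold (limma, adjusted p = 0.9999). With the library number as a further term in limma's fit the SE was 0.05 and the unadjusted p 0.0067. It did not pass there either (adjusted p = 0.316 in limma). Its transcript was present in all KO libraries, and these values do not bear on the protein. All 9 markers of mammary epithelium looked for were in the table. None of the 9 adipocyte markers looked for, such as Adipoq, Plin1 and Fabp4, was in it, and none of the 5 endothelial ones. Of the 8 fibroblast markers only Pdgfra was listed, and of the 7 leukocyte markers only Cd68.

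The lipid synthesis genes differed far more between library numbers than between genotypes. In KO 4 and WT 4, 33 of the 36 genes were lower than in the libraries numbered 1 and 2, and 1 gene, Insig2, was higher, by limma's test with the genotype as a covariate and a Benjamini-Hochberg adjusted p of 0.05 as the threshold. The median difference over the 36 genes was -1.32 on the log2 scale. The libraries numbered 4 stood apart across the whole transcriptome: 65.6% of all tested genes passed the same test, 33.8% lower and 31.8% higher, with a median difference of 0.0031. A call alone is therefore common, and the members are read here by size and direction. A log2 difference of -1 or lower was found in 23 of the 36 members and in 4.89% of all tested genes. In 33 members both libraries numbered 4 lay below all 4 others, which was the case for 37.0% of all tested genes. Because the list was chosen with earlier results of these data known, these contrasts are a description and not an independent test. Each genotype has a single library numbered 4, so this comparison sets 2 libraries against 4 and its p-values rest on the spread between these libraries. In bulk RNA, fewer cells with high levels and less RNA per cell cannot be told apart.

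**Figure D1:**
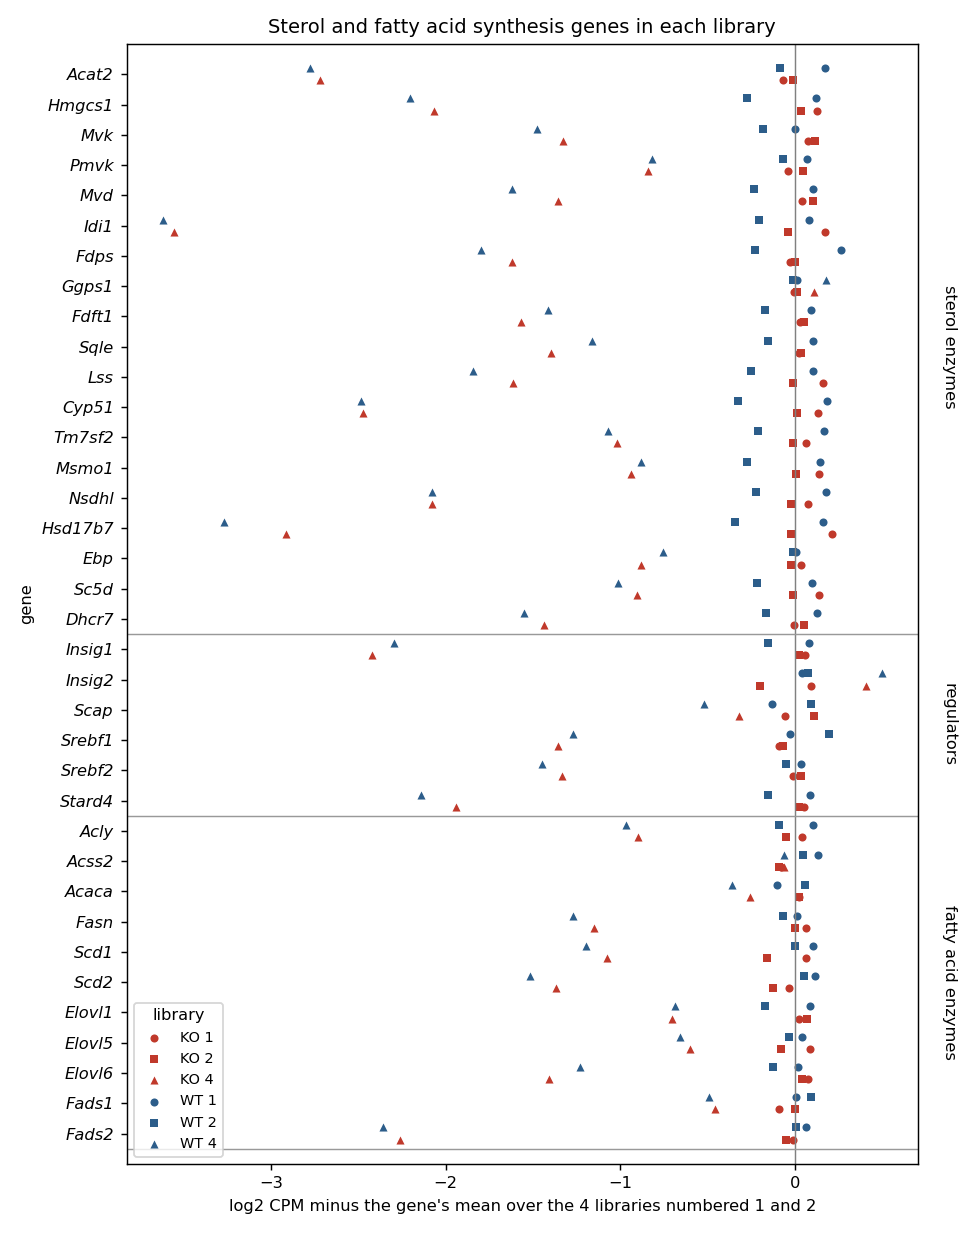
Level of each of the 36 genes in each library, as log2 CPM minus the gene's mean over the 4 libraries numbered 1 and 2 (red, KO; blue, WT; circle, square and triangle, numbers 1, 2 and 4). The triangles lie to the left of the other symbols for 33 genes and to the right for Ggps1 and Insig2, and Idi1 lies furthest to the left.

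The sterol enzymes fell the most. Of 19 genes, 18 were lower in the libraries numbered 4 and 0 higher, with a median difference of -1.49, which is 35.6% of the level in numbers 1 and 2. The 7 of the 8 genes from acetyl-CoA to the isoprenoid diphosphates that fell, and all 11 genes from squalene synthesis to cholesterol, were spread over -0.82 to -3.59. The medians of the earlier and the later block of steps were -1.60 and -1.49. Together the 19 genes made up 0.160%, 0.153%, 0.166% and 0.130% of all reads in KO 1, KO 2, WT 1 and WT 2, and 0.0585% and 0.0576% in KO 4 and WT 4.

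Idi1, which isomerises isopentenyl diphosphate into the primer of isoprenoid chains, changed most. It was covered by 801, 617, 750 and 592 reads in KO 1, KO 2, WT 1 and WT 2, and by 64 and 55 reads in KO 4 and WT 4. In log2 CPM these were 5.37, 5.16, 5.28 and 5.0 against 1.64 and 1.58. The difference was -3.59 (SE 0.11, adjusted p = 5.49e-08), the 4th lowest of the 11269 genes tested. Hsd17b7, a reductase that acts at the carbon 3 ketone of the sterol ring, was the 7th lowest. Its levels were 5.87, 5.63, 5.81 and 5.31 log2 CPM in KO 1, KO 2, WT 1 and WT 2 and 2.74 and 2.39 in KO 4 and WT 4, a difference of -3.09 (SE 0.14, adjusted p = 2.98e-07). In both genes the libraries numbered 4 were far below the 4 others. Those 4 spread more for Hsd17b7 (SD 0.25) than for Idi1 (SD 0.16), and WT 2 was the lowest of them in both.

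Acat2, the cytosolic thiolase that joins a pair of acetyl-CoA molecules, opens the pathway. It stood at 6.17, 6.23, 6.41 and 6.16 log2 CPM in KO 1, KO 2, WT 1 and WT 2 and at 3.53 and 3.47 in KO 4 and WT 4, a difference of -2.75 (SE 0.08, adjusted p = 5.29e-08). Cyp51, the lanosterol demethylase, stood at 7.62, 7.5, 7.67 and 7.16 against 5.02 and 5.0, a difference of -2.48 (SE 0.12, adjusted p = 4.65e-07). The groups did not overlap for either gene, and WT 2 was the lowest of the 4 higher libraries. Hmgcs1, which makes HMG-CoA from acetoacetyl-CoA, and Nsdhl, which removes the carbon 4 methyl groups together with other enzymes, followed with differences of -2.13 and -2.08.

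The other fallen sterol enzymes were Lss (-1.73), the cyclase that closes squalene epoxide into lanosterol, and Fdps (-1.71), which makes farnesyl diphosphate. Dhcr7, the last reductase of the route, Mvd, the mevalonate diphosphate decarboxylase, and Fdft1, the squalene synthase, differed by -1.50, -1.49 and -1.49. Mvk, the mevalonate kinase, and Sqle, the squalene epoxidase, differed by -1.40 and -1.28. The smallest falls were in Tm7sf2 (-1.04), a sterol C14 reductase, Sc5d (-0.96), a desaturase, Msmo1 (-0.91), the methylsterol oxidase, Pmvk (-0.83), the phosphomevalonate kinase, and Ebp (-0.82), the sterol isomerase.

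Ggps1 was the exception among the 19. It makes geranylgeranyl diphosphate, the lipid attached to small GTPases, on a branch that leaves the sterol route. Its levels were 5.18, 5.19, 5.19 and 5.17 log2 CPM in KO 1, KO 2, WT 1 and WT 2 and 5.29 and 5.36 in KO 4 and WT 4. Both libraries numbered 4 lay above the others by a small margin, and the difference of 0.14 (SE 0.06) did not pass the threshold (adjusted p = 0.081).

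Promoters are shown for the 4 sterol enzymes and the 2 fatty acid enzymes with the largest differences among those with a promoter at hand, with the boxes known from SREBP target promoters marked. Sterol enzymes with smaller differences, such as Nsdhl (-2.08), are not printed although they exceed Elovl6 (-1.32). RefSeq promoters (build GRCm38.p6, 250 bases before to 50 after the transcript start) were at hand for 29 of the 36 genes, 38 starts in all. They were searched on both strands for 4 motifs: TCACNCCAC, a core of the sterol regulatory element, CCAAT, bound by NF-Y, GGGCGG, bound by Sp1, and the E-box CACGTG. The 250 bases before the start are printed 5′ to 3′ on the gene's strand, and capitals mark a match to any of the 4 motifs on either strand. No matches overlapped. The windows are Idi1 at chr13:8885356-8885605 (plus strand), Hsd17b7 at chr1:169969206-169969455 (minus), Cyp51 at chr5:4104698-4104947 (minus), Hmgcs1 at chr13:119690101-119690350 (plus), Acat2 at chr17:12960726-12960975 (minus), Fads2 at chr19:10101504-10101753 (minus) and Elovl6 at chr3:129532136-129532385 (plus). Hmgcs1 was added after its match was seen, as the only one of the 38 windows with the sterol element core. The RefSeq starts differ from the gene starts in GENCODE M21. There Idi1 begins at 8885501 and Fads2, on the minus strand, at 10101746. All boxes marked for Idi1 and Fads2 therefore lie within the annotated genes. The Hsd17b7, Cyp51, Acat2 and Elovl6 windows also reach into their genes.
Idi1: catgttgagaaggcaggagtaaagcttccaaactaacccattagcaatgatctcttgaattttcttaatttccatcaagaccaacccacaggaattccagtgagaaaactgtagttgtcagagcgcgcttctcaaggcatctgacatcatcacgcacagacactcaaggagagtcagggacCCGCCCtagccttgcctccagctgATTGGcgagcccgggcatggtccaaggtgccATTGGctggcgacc
Hsd17b7: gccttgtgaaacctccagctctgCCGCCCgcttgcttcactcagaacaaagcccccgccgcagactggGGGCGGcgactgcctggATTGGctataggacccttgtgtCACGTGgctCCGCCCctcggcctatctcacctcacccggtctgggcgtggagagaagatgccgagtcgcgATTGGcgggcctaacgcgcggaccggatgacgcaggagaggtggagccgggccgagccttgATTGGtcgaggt
Cyp51: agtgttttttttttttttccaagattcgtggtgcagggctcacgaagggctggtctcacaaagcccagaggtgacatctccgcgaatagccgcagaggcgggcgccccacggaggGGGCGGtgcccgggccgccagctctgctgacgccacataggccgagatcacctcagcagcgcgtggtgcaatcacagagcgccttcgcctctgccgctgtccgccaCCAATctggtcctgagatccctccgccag
Hmgcs1: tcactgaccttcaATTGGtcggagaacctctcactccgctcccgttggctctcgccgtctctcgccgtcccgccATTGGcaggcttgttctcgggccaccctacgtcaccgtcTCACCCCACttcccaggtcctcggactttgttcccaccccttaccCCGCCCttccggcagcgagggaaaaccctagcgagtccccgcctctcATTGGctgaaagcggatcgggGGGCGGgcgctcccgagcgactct
Acat2: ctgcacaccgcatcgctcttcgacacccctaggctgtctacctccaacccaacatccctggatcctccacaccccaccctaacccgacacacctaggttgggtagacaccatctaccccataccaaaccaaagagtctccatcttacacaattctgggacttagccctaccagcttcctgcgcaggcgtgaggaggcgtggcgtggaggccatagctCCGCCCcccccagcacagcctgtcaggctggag
Fads2: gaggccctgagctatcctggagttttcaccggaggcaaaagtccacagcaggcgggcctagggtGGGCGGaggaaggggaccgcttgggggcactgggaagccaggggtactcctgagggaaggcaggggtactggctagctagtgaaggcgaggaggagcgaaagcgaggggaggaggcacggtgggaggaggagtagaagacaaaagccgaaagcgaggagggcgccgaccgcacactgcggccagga
Elovl6: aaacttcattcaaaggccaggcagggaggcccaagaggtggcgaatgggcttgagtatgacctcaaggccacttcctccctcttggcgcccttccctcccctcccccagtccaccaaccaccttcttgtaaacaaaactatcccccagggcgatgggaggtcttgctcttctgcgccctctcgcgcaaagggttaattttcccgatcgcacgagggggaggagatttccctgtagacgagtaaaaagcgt

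The NF-Y box was in the promoters of 24 of the 29 genes (82.8%), against 41.1% of the 27025 genes in the promoter table. That table is not limited to the genes tested here, whereas all members were tested. Shares among tested genes alone were not counted, so an excess cannot be read as particular to the members. The Sp1 box was in 23 of 29 (79.3%) against 38.2%, and the E-box in 6 of 29 (20.7%) against 8.09%. The exact sterol element core was in 1 of 29 (3.45%) against 1.44%, so it marks few genes of either set. Among the sterol enzymes alone, 15 of 16 genes held an NF-Y box. Hsd17b7 held 3 copies of ATTGG, the NF-Y box on the other strand, and Idi1 held 2, whereas Acat2, Fads2 and Elovl6 held none in this window. The median number 4 difference was -1.26 in the 24 members with the NF-Y box and -1.32 in the 5 without it. For the Sp1 box the medians were -1.40 (23 genes) and -0.73 (6 genes), with no test. These are counts of letters and say nothing of binding in these cells.

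The regulators moved with the enzymes, apart from Insig2. Insig1 is itself an SREBP target and encodes the protein that retains SCAP when sterol is plentiful. It was at 6.76, 6.73, 6.78 and 6.55 log2 CPM in KO 1, KO 2, WT 1 and WT 2 and at 4.28 and 4.41 in KO 4 and WT 4. The difference was -2.36 (SE 0.08, adjusted p = 9.18e-08), and the groups did not overlap.

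Insig2, its paralog, is known to be less dependent on SREBPs. It was at 5.26, 4.97, 5.21 and 5.25 log2 CPM in KO 1, KO 2, WT 1 and WT 2 and at 5.58 and 5.67 in KO 4 and WT 4. It rose by 0.45 (SE 0.09, adjusted p = 0.00137), with both libraries numbered 4 above the rest. Per kilobase of the longest annotated transcript, Insig1 stood at 38.7 ± 2.80 CPM and Insig2 at 13.4 ± 1.22 (SD, n = 4 libraries numbered 1 and 2). In KO 4 the values were 7.19 and 17.7, and in WT 4 they were 7.84 and 18.8. The order of the paralogs was thus reversed in both libraries numbered 4.

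Both SREBP genes were lower. Srebf2 was at 7.93, 7.98, 7.98 and 7.89 log2 CPM in KO 1, KO 2, WT 1 and WT 2 and at 6.61 and 6.50 in KO 4 and WT 4, a difference of -1.39 (SE 0.05, adjusted p = 1.72e-07). Srebf1 was at 6.93, 6.95, 6.99 and 7.22 against 5.66 and 5.75, a difference of -1.32 (SE 0.07, adjusted p = 6.61e-07). Neither gene's groups overlapped, and the values do not separate the promoters of the SREBP1 isoforms. Stard4, a soluble sterol carrier and SREBP target, was at 6.11, 6.08, 6.14 and 5.90 against 4.11 and 3.91, a difference of -2.04 (SE 0.08, adjusted p = 1.91e-07). Scap, the escort, changed least among the regulators that fell, by -0.42 (SE 0.08, adjusted p = 0.00124), from 7.13, 7.30, 7.06 and 7.28 to 6.87 and 6.67.

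The fatty acid enzymes were lower by less at the median. Of 11 genes, 10 were lower in the libraries numbered 4 and 0 higher, with a median difference of -0.93, or 52.4% of the level in numbers 1 and 2. A log2 difference of -1 or lower was found in 5 of the 11 fatty acid enzymes, 4 of the 6 regulators and 14 of the 19 sterol enzymes. The difference between the medians of the groups was not tested, since members of a pathway are not replicates. By share of reads, which weighs abundant genes such as Scd2 and Fasn most, the sterol and fatty acid enzymes were closer. The libraries numbered 4 held on average 0.381 times the sterol enzyme share of the others and 0.468 times the fatty acid share. For the regulators, which fell least by this measure but not by the median, it was 0.505 times. The fatty acid enzymes made up 0.440%, 0.419%, 0.463% and 0.435% of all reads in KO 1, KO 2, WT 1 and WT 2, and 0.215% and 0.196% in KO 4 and WT 4.

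**Figure D2:**
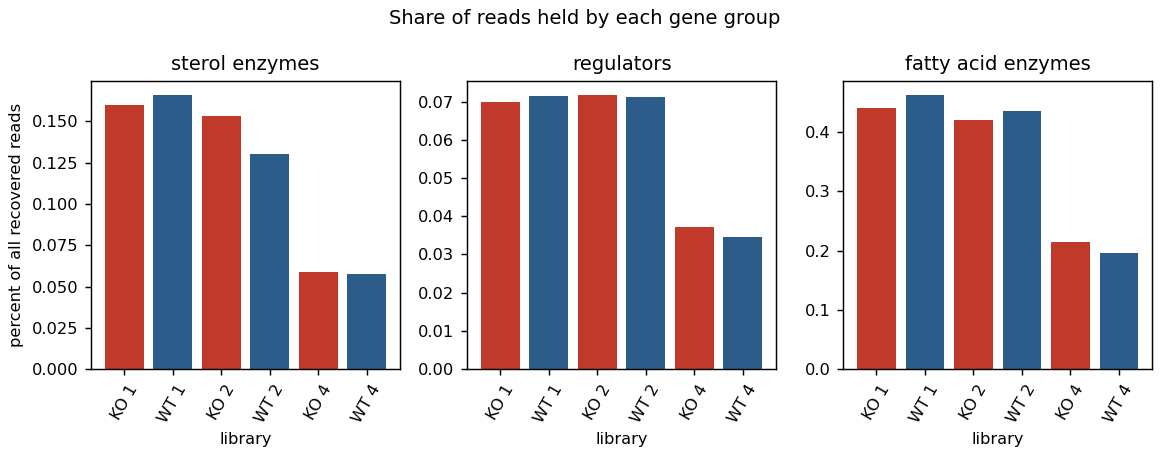
Percent of all recovered reads held by the 19 sterol enzymes, the 6 regulators and the 11 fatty acid enzymes in each library (bars, 1 library each; red, KO; blue, WT). In each panel the bars of KO 4 and WT 4 are the lowest, at 0.0585% and 0.0576% for the sterol enzymes and 0.215% and 0.196% for the fatty acid enzymes.

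The desaturases changed most within this group by median, at -1.29, but unevenly, from -2.31 to -0.48. The median was -0.70 for the elongases and -0.62 for Acly, Acss2, Acaca and Fasn. Fads2, the delta-6 desaturase of polyunsaturated fatty acids, was at 8.26, 8.21, 8.33 and 8.27 log2 CPM in KO 1, KO 2, WT 1 and WT 2 and at 6.01 and 5.91 in KO 4 and WT 4. The difference was -2.31 (SE 0.06, adjusted p = 1.78e-08), well outside the spread of the 4 other libraries. Fads1, the delta-5 desaturase that acts after it and whose gene also lies on chromosome 19, differed by only -0.48 (SE 0.06, adjusted p = 0.000102).

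Scd2, a stearoyl-CoA desaturase that makes monounsaturated fatty acids, was the most abundant member. It was at 10.78, 10.69, 10.94 and 10.87 log2 CPM against 9.45 and 9.31, a difference of -1.44 (SE 0.08, adjusted p = 8.57e-07). Its paralog Scd1 differed by -1.14 (SE 0.08, adjusted p = 3.24e-06). Per kilobase, Scd2 stood at 332 ± 24.4 CPM and Scd1 at 23.6 ± 1.82 (SD, n = 4 libraries numbered 1 and 2), so Scd2 carried most stearoyl-CoA desaturase transcript in these cells. The genes are paralogs, and reads could be shared where their sequences match.

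Among the elongases, Elovl6, which extends palmitate, was at 7.79, 7.76, 7.74 and 7.59 log2 CPM against 6.31 and 6.49, a difference of -1.32 (SE 0.07, adjusted p = 8.87e-07). Elovl1, an elongase of very long saturated chains, and Elovl5, an elongase of polyunsaturated chains, differed by -0.70 and -0.63. Fasn, the synthase that builds palmitate, was at 10.09, 10.03, 10.04 and 9.96 against 8.89 and 8.76, a difference of -1.21 (SE 0.06, adjusted p = 4.12e-07). Acly, which makes cytosolic acetyl-CoA from citrate for both routes, differed by -0.93 (SE 0.07).

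The enzymes around acetyl-CoA and malonyl-CoA outside Acly changed least. Acaca, the carboxylase that commits acetyl-CoA to fatty acids, was at 7.40, 7.40, 7.27 and 7.43 log2 CPM in KO 1, KO 2, WT 1 and WT 2 and at 7.12 and 7.02 in KO 4 and WT 4. It fell by 0.31 (SE 0.06, adjusted p = 0.00134), without overlap between the groups. Acss2, which makes acetyl-CoA from acetate, was at 4.15, 4.13, 4.36 and 4.27 against 4.17 and 4.17. The values overlapped, and the difference of -0.06 (SE 0.09) did not pass the threshold (adjusted p = 0.548).

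The order of the members by level changed with these unequal falls. Per kilobase of longest transcript, Acly (114.6 ± 6.98 CPM), Fasn (104.4 ± 3.90) and Fads2 (97.9 ± 3.32) followed Scd2 in the libraries numbered 1 and 2 (SD, n = 4). Msmo1 (67.9 ± 8.74) led the sterol enzymes. The levels of Acly and Fasn differed by less than their SDs combined, as did those of Fasn and Fads2. In the libraries numbered 4 Scd2, Acly and Fasn kept ranks 1, 2 and 3 of 36, while Fads2 went from rank 4 to 9, Hmgcs1 from 6 to 16, Cyp51 from 9 to 23 and Acat2 from 15 to 29. Insig2 went from rank 29 to 12. Idi1, at 12.2 ± 1.35 CPM per kilobase in numbers 1 and 2, was the lowest of the 36 in numbers 4, at 1.01 in KO 4 and 0.971 in WT 4.

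The fall was alike in both genotypes. The median of the 36 members in the library numbered 4, less the mean of numbers 1 and 2, was -1.32 within KO and -1.30 within WT. For the sterol enzymes these medians were -1.46 and -1.53, for the regulators -1.31 and -1.40, and for the fatty acid enzymes -0.89 and -0.97. Whether KO minus WT differed between number 4 and numbers 1 and 2 was tested with an interaction term in limma. No gene passed among the 11269 tested (0.0%), and 440 genes (3.9%) had an unadjusted p under 0.05. Among these were 2 members, Scd2, with a term of 0.31 (SE 0.13), and Elovl6, with a term of -0.29 (SE 0.12), and both had an adjusted p of 0.997 in limma. Leaving out WT 1 gave 75 genes lower and 70 higher for this term, and leaving out WT 2 gave 78 and 191, with no member among them. With limma voom, run on recovered reads, 0 genes passed for it and 0 for KO against WT.

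Some other measures differed in the same libraries. Their counts stand beside 33.8% lower and 31.8% higher over all tested genes. The 8 proliferation markers looked for, such as Mki67, Pcna and Rrm2, were all lower in the libraries numbered 4, with a median difference of -1.28. Their share of reads was 0.217% and 0.216% in KO 4 and WT 4 against 0.375% to 0.388% in the others. Of the 7 mitochondrially encoded genes 6 were lower, with a median of -0.65, and the 7 held 0.343% and 0.309% against 0.379% to 0.493%. Of the 9 mammary epithelial markers 3 were lower, near the share of all tested genes, and 5 higher, with a median of 0.36. Among these Krt8 fell by 1.27 and Krt7 by 0.70, whereas Cldn4 rose by 0.89 and Elf3 by 0.76. Their share of reads was 0.39% and 0.413% in KO 4 and WT 4 against 0.435% to 0.508%. The single fibroblast marker, Pdgfra, made up 0.0013% and 0.00118% of reads in KO 4 and WT 4 against 0.000765% to 0.00109%. The leukocyte marker Cd68 overlapped between the groups, at 0.000481% and 0.000556% against 0.000387% to 0.000765%. The part of these in the lipid gene results was not tested. Transcript length and GC content were related weakly to the number 4 difference across 11158 genes, with Spearman's rho of 0.089 and 0.0022. The genes are not independent replicates. After a correction for both, the medians were -1.51 for the sterol enzymes, -1.45 for the regulators and -0.99 for the fatty acid enzymes.

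The medians of 7 lists of neighbouring lipid genes lay between -0.31 and 0.46, where that of all genes was 0.0031. Their counts stand beside 33.8% lower and 31.8% higher over all tested genes. Of the 7 genes for SREBP cleavage, transport and INSIG turnover, 2 were lower in the libraries numbered 4 and 2 higher, near those shares, with a median difference of 0.05. Sar1b, a GTPase of transport vesicles, fell by 0.54, and Mbtps2, the second SREBP protease, rose by 0.26. Mbtps1, the protease that cuts first, was at 8.11, 8.11, 8.03 and 8.26 log2 CPM in KO 1, KO 2, WT 1 and WT 2 and at 8.14 and 8.22 in KO 4 and WT 4, a difference of 0.05 (SE 0.07) that did not pass (adjusted p = 0.508).

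Of the 6 tested genes of the liver X receptor (LXR) and sterol efflux list, 4 were higher and 1 lower, with a median of 0.46. LXRs are receptors that respond to oxidised sterols. Rxrb, a partner receptor, rose by 1.08 (SE 0.07), and Mylip, an LXR target whose product degrades lipoprotein receptors, rose by 0.94 (SE 0.14). Lpcat3, a phospholipid acyltransferase and LXR target, fell by 0.90 (SE 0.07). Abcg1, a sterol exporter, was too low to be tested, at -1.11, -1.82, -1.95 and -0.41 log2 CPM in KO 1, KO 2, WT 1 and WT 2 and at 1.21 and 0.68 in KO 4 and WT 4.

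Of the 11 sterol uptake, transport and esterification genes, 6 were higher and 2 lower, with a median of 0.28, beside 31.8% higher and 33.8% lower over all tested genes. Vldlr, a lipoprotein receptor, showed the largest difference of any of these lists. It was at 2.28, 1.77, 2.63 and 3.57 log2 CPM in KO 1, KO 2, WT 1 and WT 2 and at 5.70 and 5.78 in KO 4 and WT 4, a difference of 3.18 (SE 0.29, adjusted p = 1.48e-05). Osbpl2 and Osbpl9, oxysterol binding protein relatives, rose by 1.46 and 1.13. Tmem97, a sterol-regulated membrane protein, and Scarb1, the high density lipoprotein receptor, fell by 1.21 and 1.09.

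Of the 10 genes on isoprenoid branches, 4 were lower and 3 higher, near the shares of all tested genes (33.8% and 31.8%), with a median of -0.07. Pdss1, which makes the side chain of ubiquinone, and Fntb, the farnesyltransferase subunit, fell by 1.12 and 1.05. Of the 14 tested genes of the fatty acid chain cycle and its cofactor supply, 8 were lower and 4 higher, with a median of -0.31. Slc25a1, the mitochondrial citrate carrier, fell by 1.24, whereas Acacb, the mitochondrial acetyl-CoA carboxylase, rose by 1.66 (SE 0.22) and Fads3 rose by 1.10. Of the 11 genes of acyl-CoA and glycerolipid synthesis, 6 were lower and 0 higher, with a median of -0.21. Lpin1, a phosphatidate phosphatase, fell by 0.999 and Dgat2, an acyltransferase of triglyceride synthesis, by 0.82. Of the 10 tested genes of fatty acid oxidation, 2 were lower and 5 higher, with a median of 0.17, and Cpt1a, the gatekeeper of mitochondrial import, rose by 0.78.

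**Figure D3:**
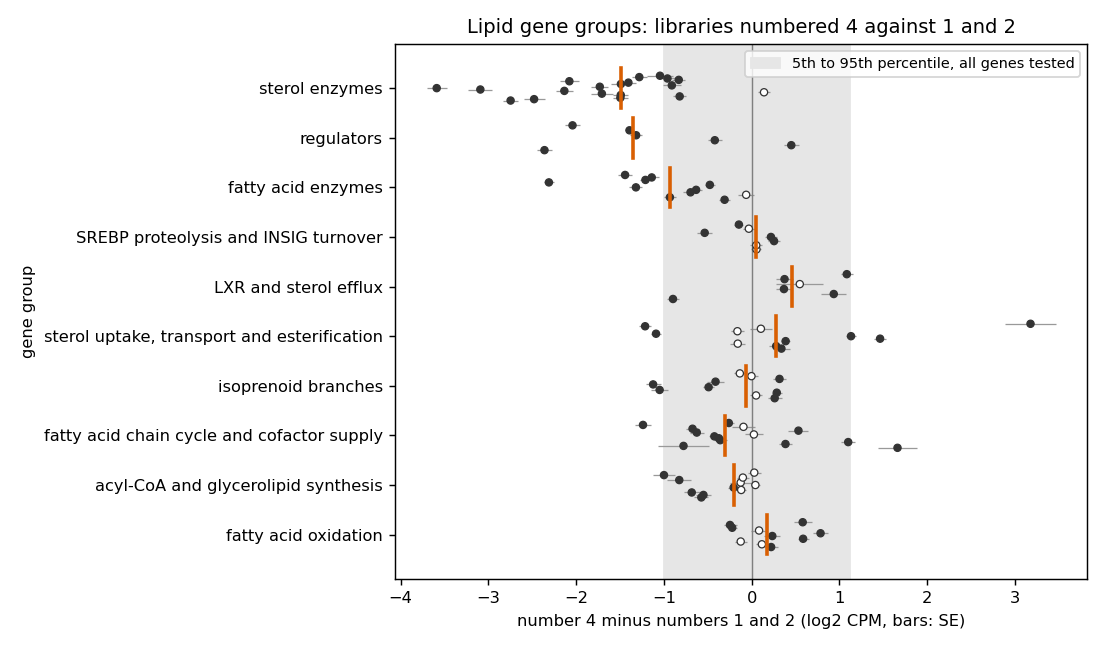
Number 4 minus numbers 1 and 2 (log2 CPM, limma estimate with SE bars) for each tested gene of 10 lipid gene groups; filled points passed an adjusted p of 0.05, orange lines are group medians and the grey band is the 5th to 95th percentile of all 11269 genes (-0.996 to 1.12). The medians of the sterol enzymes (-1.49), regulators (-1.35) and fatty acid enzymes (-0.93) lie left of those of the other 7 groups.

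KO against WT gave no call among the members. Of the 36 genes, 0 passed the threshold in limma's test over all 6 libraries, as did 0 of the 11269 genes tested (0.0%), and 0 members and 23 genes (0.204%) had an unadjusted p under 0.05. The median KO minus WT difference was 0.07 for the sterol enzymes, 0.03 for the regulators and 0.01 for the fatty acid enzymes, the last at -0.0103 after the length and GC correction. The SEs of the members ran from 0.11 to 1.38, since the difference between library numbers stays in the residual spread of this fit. With library numbers fitted as a replicate block the SEs were 0.05 to 0.14, and still 0 members passed, against 1 of all genes (0.00887%). In the blocked fit 4 of the 36 members had an unadjusted p under 0.05, where 9.91% of all genes did: Hmgcs1 (0.15), Lss (0.18), Hsd17b7 (0.24) and Srebf1 (-0.14). The lowest adjusted p of any member with the block was 0.39, for Lss.

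The 4 members with the smallest p without the block were Acss2, Insig2, Scap and Acaca. Acss2 averaged 4.15 ± 0.02 log2 CPM over the KO libraries and 4.27 ± 0.10 over the WT ones (SD, n = 3), with a difference of -0.12 (SE 0.11, adjusted p = 0.9999 from limma). Insig2 averaged 5.27 ± 0.31 and 5.38 ± 0.25, Scap 7.10 ± 0.21 and 7.0 ± 0.31, and Acaca 7.31 ± 0.16 and 7.24 ± 0.21. Each of these differences was smaller than the spread between libraries of a genotype, apart from that of Acss2, which was 0.00028 in the pair numbered 4.

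Within the pairs, the sterol enzymes stood furthest from the other genes in the pair numbered 2. KO 2 was above WT 2 in 18 of the 19 sterol enzymes (49.7% of all tested genes), with a median of 0.22 and a range of -0.01 to 0.34. In the pair numbered 1 KO was above WT in 7 of the 19 (49.9% of all tested genes), with a median of -0.05, and in the pair numbered 4 in 12 of the 19 (46.7% of all tested genes), with a median of 0.06. The fatty acid enzymes had medians of -0.06, -0.04 and 0.07 in the pairs numbered 1, 2 and 4, and the regulators -0.03, 0.05 and 0.01.

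The sterol enzymes also differed between WT 2 and WT 1. All 19 sterol enzymes were lower in WT 2 than in WT 1 (50.2% of all tested genes were), with a median of -0.31 and a lowest value of -0.51 for Cyp51. KO 2 was below KO 1 in 10 of the 19 (49.7% of all tested genes), with a median of -0.05. The WT difference and the difference within the pair numbered 2 share the library WT 2, so they are not separate observations. Cyp51 shows both: WT 1 was at 7.67, KO 1 at 7.62, KO 2 at 7.5 and WT 2 at 7.16. Each of these comparisons rests on a single library per side and has no test. The 7 mitochondrially encoded genes were likewise all lower in WT 2 than in WT 1 (median -0.21) and all lower in KO 2 than in KO 1 (median -0.30). All 7 were higher in KO in each pair, with medians of 0.22, 0.12 and 0.15 in the pairs numbered 1, 2 and 4. The mammary epithelial markers were lower in KO in 5, 9 and 7 of 9 in those pairs. The part of these in the sterol enzyme values was not tested.

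Across the 3 pairs, 8 of the 36 members were higher in KO each time and 1 was lower each time, as were 15.6% and 17.0% of all tested genes. The 8 were 6 sterol enzymes, Hmgcs1, Mvk, Idi1, Lss, Hsd17b7 and Sc5d, with Scap and Fasn. The gene lower in each pair was Srebf1, by 0.06, 0.26 and 0.09. Fasn was higher by 0.05, 0.07 and 0.12, and Hsd17b7 by 0.05, 0.32 and 0.35. These differences are small beside the fall between library numbers, which was 1.21 for Fasn and 3.09 for Hsd17b7.

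**Figure D4:**
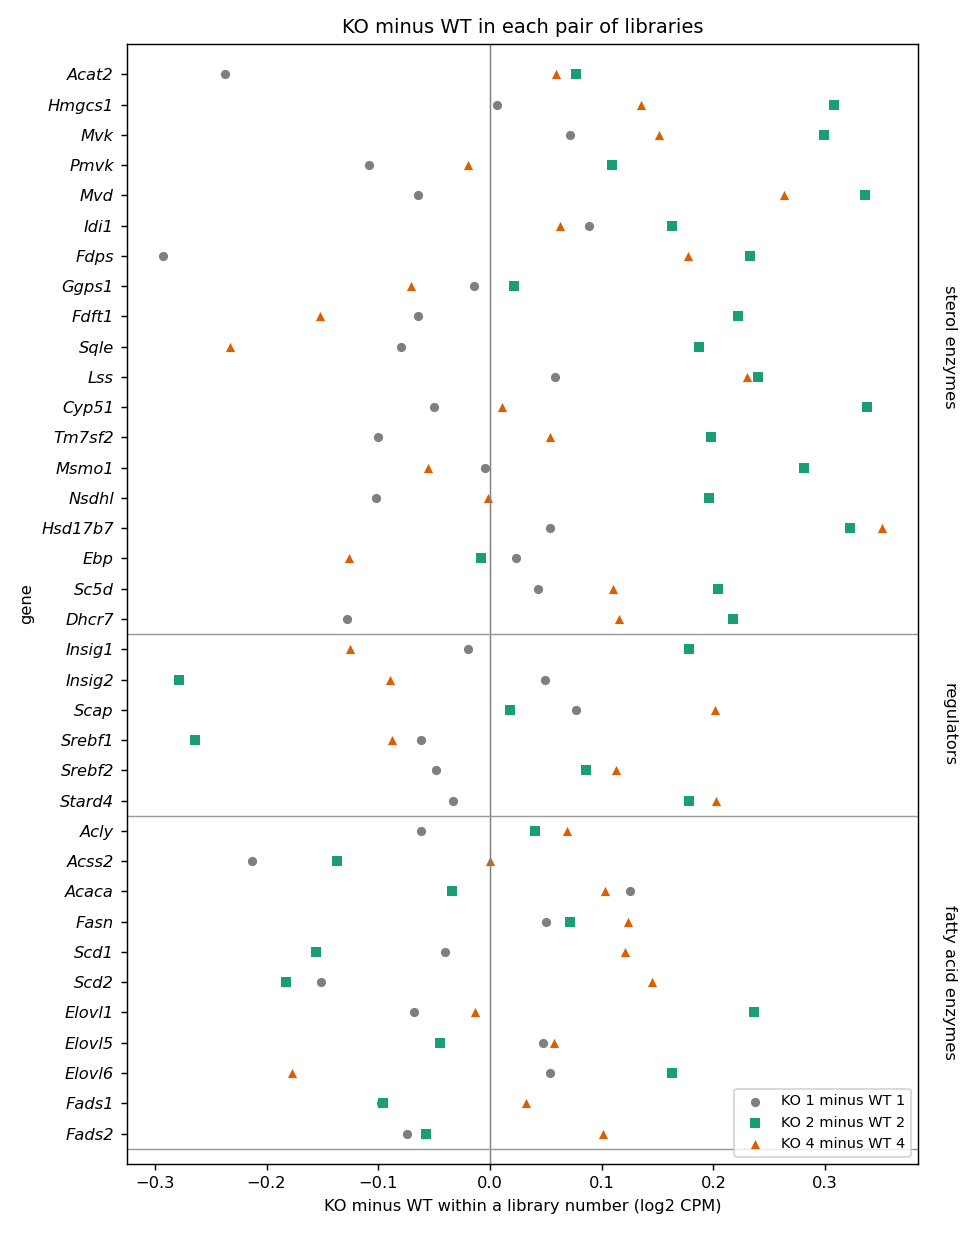
KO minus WT (log2 CPM) for each of the 36 genes within library numbers 1 (grey circles), 2 (green squares) and 4 (orange triangles). The values lie between -0.29 and 0.35, and the green squares are right of 0 for 18 of the 19 sterol enzymes and 4 of the 11 fatty acid enzymes.

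Some values are less certain because annotated exons overlap those of another gene, and the sources used here do not state the strand setting of the authors' counting. In GENCODE M21 (GRCm38), Fdft1 (chromosome 14, 63145150 to 63179578, minus strand) shares 18.3% of its exon bases with Ctsb on the opposite strand. Fdps shares 26.7% with the predicted gene Gm43738 and Tm7sf2 12.1% with Vps51, each on its own strand. Cyp51 shares 3.76% with Akap9 on the opposite strand. Scap shares 13.2% with 5830462I19Rik, Hmgcs1 12.1% with Gm48342 and Ggps1 5.44% with Arid4b, all on the opposite strand. Idi1 (chromosome 13, 8885501 to 8892451, plus strand), Hsd17b7 (chromosome 1, 169949535 to 169969241, minus strand) and Fads2 (chromosome 19, 10062765 to 10101746, minus strand) share 9.22%, none and none of theirs. Acat2 has a near copy, Acat3, whose reads could be shared with it.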

How the data were processed

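RNA was sequenced from 3 KO and 3 WT libraries, made with a stranded mRNA kit per the labels' protocols. The tools that the submitters' processing notes name are STAR 2.7.3a, Trimmomatic 0.39, edgeR, and featureCounts from Subread 1.6.4, and the build is GRCm38. The authors deposited log2 CPM values, which by their lowest level carry a prior. The sources used here do not state the annotation, strand setting or normalization. Columns numbered 1 and 2 were matched to the pools of the same number, and those numbered 4 to their genotype only.

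Whole reads were recovered by subtracting the lowest linear value and dividing by the step of 1 read, and 100.0% of values were whole within 0.01. The step gives the effective library size used in the deposited values. It was 0.971 to 0.981 times the recovered reads in numbers 1 and 2, 1.07 times in KO 4 and 1.04 times in WT 4. Shares of reads use all recovered reads, so they and the CPM values are on different scales. A count of 0 reads allows up to 0.144 to 0.173 CPM per library, taking 3 reads as the limit, for counting error only.

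The deposited log2 values were tested with limma 3.58.1 in R 4.3.3 (trended variance, two-sided, Benjamini-Hochberg over all genes, threshold 0.05). A minimum log2 CPM of 0 in 3 or more libraries dropped 183 of 11452 genes. Number 4 was compared with numbers 1 and 2 with genotype as a covariate, KO with WT without a covariate, and their interaction. The p-values measure only the spread between these libraries, which the labels do not tie to separate cultures. The code was tested on simulated data. Fold changes of weak genes are understated by the prior.

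Same-numbered KO and WT deviations from the genotype means correlated at 0.744, 0.784 and 0.921 for numbers 1, 2 and 4, so the numbers were taken to pair the libraries. This comes from the data and not from a label, and mostly reflects number 4 against the rest: KO 1 with WT 2 correlated at 0.687 and KO 2 with WT 1 at 0.617, and KO 2 minus KO 1 with WT 2 minus WT 1 at 0.256 across genes. The pairing of numbers 1 and 2 is therefore less certain. With the block, no call on a member changed.

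The members and lists were chosen with earlier results of these data known. All members were accounted for. Those given by library were the 4 of each group with the largest number 4 difference, those against their group's direction, any called for KO against WT or the interaction, and the 4 with the smallest KO against WT p. Other members given by library were chosen after their values were seen. From the other lists, up to 4 genes with the largest difference were eligible, and Scarb1 and Mbtps1 were named after their values were seen. Alternatives were a minimum of log2 CPM 1, no filter, log2(CPM + 1), median centring, quantile normalization, untrended and robust variance, limma voom on recovered reads, the replicate block, a term for number 4, numbers 1 and 2 only and leaving out each library. The length and GC correction was added after seeing the data.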

Additional observations from a re-analysis of the deposited data

How the results depend on the processing

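The number 4 comparison kept all 34 calls on members, in direction and side of the threshold, under every alternative run, including each library left out. The medians over leaving out each library ran from -1.55 to -1.43 (sterol enzymes), -1.40 to -1.31 (regulators) and -0.97 to -0.89 (fatty acid enzymes). The regulator median was -1.28 with quantile normalization and -1.45 after length and GC were corrected. The fatty acid median was -0.76 with quantile normalization. Acss2, not called, was at -0.150 without KO 4 and 0.0249 without WT 4.

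For KO against WT, the replicate block and the length and GC correction with the block each called 1 gene lower over all genes, and no member. The correlations behind the pairing are given with the processing. Leaving out a library unbalances the numbers, so the medians moved by construction: -0.42 to 0.57 (sterol enzymes), -0.51 to 0.39 (regulators) and -0.31 to 0.31 (fatty acid enzymes). Likewise Insig2 ran from -0.26 to 0.0441, Scap from -0.0668 to 0.24 and Acaca from -0.0475 to 0.16. Acaca was at -0.0103 after length and GC were corrected, with or without the block. For the interaction, leaving out libraries numbered 1 or 2 gave 0 to 78 genes lower and 0 to 191 higher, and no member. Of these, leaving out WT 1 gave 75 lower and 70 higher and leaving out WT 2 gave 78 and 191. Without a library numbered 4 that term could not be estimated.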
